A study of Mus musculus with 30 samples.

Results

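The mitosis and chromosome segregation genes are 44 genes whose products build the spindle, attach chromosomes to it, separate sister chromatids and split the cell. They were picked by symbol, with earlier results of these data known. All 44 symbols are listed in each of the 3 deposited count tables, of which the largest list 46095 gene symbols. RNA was sequenced from T cells sorted out of thymus and spleen of C57BL/6 mice. CKO mice carried CD4-Cre with both copies of Prmt5 floxed (CD4-Cre+ PRMT5fl/fl), and WT mice are labelled wild type. Cre under Cd4 control acts in thymocytes from about the double-positive stage on and in the T cells that descend from them. Since the controls lack the Cre, its own effects and those of losing Prmt5 cannot be told apart, and the labels give neither age nor sex. Each genotype had 3 mice in each of 5 populations: thymus DP (carrying both CD4 and CD8), thymus CD4 SP and thymus CD8 SP (single-positive), spleen CD4 and spleen CD8, 30 libraries in all. The same mice gave DP and CD4 SP thymocytes, and another set of mice gave both spleen populations, by the animal numbers in the labels.

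A dividing cell switches on this set late in its cycle. Cdk1 bound to B-type cyclins drives entry into mitosis, the kinases of the Aurora and Polo families shape the spindle, and the checkpoint kinases hold the cell until every kinetochore, the chromosome's attachment site, is held by microtubules. Cdc20 then turns on the anaphase promoting complex, separase (Espl1) cuts the cohesin between sister chromatids, and the ring that divides the cell closes. In T cells these transcripts are textbook marks of cycling cells: they are high in thymocytes that proliferate and in antigen-driven T cells, and low in resting T cells of the spleen. Many of their promoters carry a CHR element, which is bound by complexes holding the protein LIN54, and CCAAT boxes, which are bound by the factor NF-Y.

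The promoters of 4 members are printed as examples of how those elements are arranged. Whether the elements have a part in the members' values was not tested. They hold 250 bases before and 50 after the RefSeq start site in GRCm38.p6 and are written on the strand of the gene. Capitals mark the CHR letters TTTGAA and the CCAAT letters CCAAT on either strand (TTCAAA and ATTGG on the other). Ccnb1, encoding cyclin B1, lies at chr13:100786437-100786736 on the minus strand and has CCAAT at -99 and -67 from the start site. Cdc20 lies at chr4:118437294-118437593 on the minus strand, with TTTGAA at -18 between CCAAT at -53 and -8. Cdk1 lies at chr10:69352863-69353162 on the minus strand, with TTTGAA at -71 and -15 and ATTGG at -208, -80 and -48. Birc5, encoding the passenger protein survivin, lies at chr11:117848987-117849286 on the plus strand and holds none of these letters in this window.
Ccnb1: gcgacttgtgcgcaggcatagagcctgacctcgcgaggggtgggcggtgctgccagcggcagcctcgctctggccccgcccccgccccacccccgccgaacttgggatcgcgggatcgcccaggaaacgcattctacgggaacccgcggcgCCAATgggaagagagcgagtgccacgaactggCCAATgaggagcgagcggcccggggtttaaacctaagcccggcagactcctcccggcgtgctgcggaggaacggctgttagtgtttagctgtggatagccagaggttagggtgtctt
Cdc20: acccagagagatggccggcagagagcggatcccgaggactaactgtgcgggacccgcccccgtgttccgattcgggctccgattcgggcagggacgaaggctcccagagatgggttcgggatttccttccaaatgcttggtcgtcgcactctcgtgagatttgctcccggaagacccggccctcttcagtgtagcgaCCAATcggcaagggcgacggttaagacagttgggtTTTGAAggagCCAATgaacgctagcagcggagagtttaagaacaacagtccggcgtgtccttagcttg
Cdk1: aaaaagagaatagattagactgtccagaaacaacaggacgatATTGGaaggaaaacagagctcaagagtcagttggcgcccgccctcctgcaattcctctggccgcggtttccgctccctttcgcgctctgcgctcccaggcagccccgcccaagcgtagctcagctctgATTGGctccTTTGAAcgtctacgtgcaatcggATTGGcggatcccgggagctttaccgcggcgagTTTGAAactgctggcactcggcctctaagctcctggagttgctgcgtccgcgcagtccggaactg
Birc5: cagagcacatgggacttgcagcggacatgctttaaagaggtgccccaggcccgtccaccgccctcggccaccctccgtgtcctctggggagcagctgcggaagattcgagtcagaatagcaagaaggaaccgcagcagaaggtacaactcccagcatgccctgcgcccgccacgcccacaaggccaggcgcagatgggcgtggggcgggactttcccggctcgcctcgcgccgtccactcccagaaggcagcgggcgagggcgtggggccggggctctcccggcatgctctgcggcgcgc

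Promoters were found for 38 of the 44 members, 40 promoters in all. The CHR letters stood in 82.5% of the members' promoters, against 17.9% of all 32851 promoters in the table. The CCAAT letters stood in 77.5%, against 37.4% of all promoters, and both stood in 70%, against 6.95%. These letters are a description of the windows and not measured binding.

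Total counts per library ran from 11865646 to 35353441. Levels are given in CPM, the count per library size scaled by TMM within a table, and fold changes are CKO over WT unless a sentence says otherwise, with the SE of the fit. Prmt5 itself checked the labels. It had 31.0, 30.3 and 30.5 CPM in CKO thymus DP, against 65.9, 59.7 and 69.6 CPM in WT thymus DP, and 41.8, 26.2 and 24.96 CPM in CKO thymus CD4 SP, against 56.9, 64.1 and 68.3 CPM in WT thymus CD4 SP. It had 116.5, 116.6 and 114.7 CPM in CKO thymus CD8 SP, against 149.6, 135 and 147.9 CPM in WT thymus CD8 SP. In the spleen it had 23.9, 18.8 and 24.04 CPM in CKO CD4, against 43.2, 44.3 and 43.5 CPM in WT CD4, and 35.6, 29.3 and 41.99 CPM in CKO CD8, against 68.02, 61.7 and 65.6 CPM in WT CD8. In each of the 5 populations every CKO library lay below every WT library, least far in thymus CD8 SP (0.804-fold). Cd8a stood at 954 to 2329 CPM in 5 of the 6 thymus CD4 SP libraries and at 44.1 CPM in CKO 17, against 2598 to 2818 CPM in thymus DP. In thymus CD4 SP the library CKO 14 also stood apart by its base composition, described with that population. In spleen CD4 the library CKO 65 was the highest of the 3 CKO libraries in 42 of the 43 members that reached 1 CPM. Kif11 was at 0 or 1 read in each of the 12 libraries of the thymus DP and CD4 SP table, against 15771 to 19895 reads in thymus CD8 SP, so it is not used in thymus DP and CD4 SP. Kifc1 shares 96.843% of 2312 aligned bases with Kifc5b, and reads can be split between the pair, so its values are uncertain.

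The level of the set was highest in thymus CD8 SP and lowest in the spleen. Averaged over the 42 members other than Kif11 and Kifc1, log2(CPM + 1) was 6.60 ± 0.0973 in CKO and 6.95 ± 0.302 in WT thymus DP (SD, n = 3 each, as for the values that follow). It was 5.03 ± 0.744 in CKO and 5.64 ± 0.206 in WT thymus CD4 SP, and 7.53 ± 0.0111 in CKO and 7.41 ± 0.0733 in WT thymus CD8 SP. It was 3.63 ± 0.485 in CKO and 3.35 ± 0.0563 in WT spleen CD4, and 4.22 ± 0.251 in CKO and 3.26 ± 0.0423 in WT spleen CD8. The 3 tables were scaled apart, so the order across tables was not tested. Immature thymocyte markers summed to 1294 to 1482 CPM in thymus CD8 SP, against 935 to 1086 CPM in thymus DP. Mature T cell markers summed to 1068 to 1388 CPM in thymus CD8 SP. They summed to 535 to 685 CPM in thymus DP and 1897 to 5012 CPM in thymus CD4 SP. How mature the sorted thymus CD8 SP cells were, and its part in the level of the set, was not tested. As a share of all counts the set made up 1.21% in CKO and 1.11% in WT thymus CD8 SP, and 0.123% in CKO and 0.0624% in WT spleen CD8. In bulk samples fewer dividing cells and less RNA per dividing cell cannot be told apart.

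**Figure D1:**
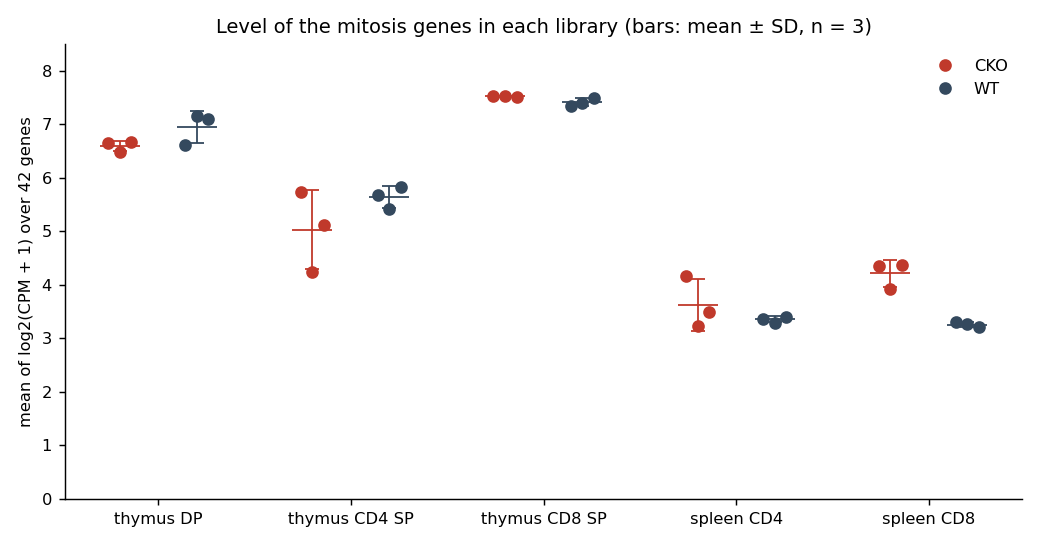
Level of the mitosis genes in each library. The y axis is the mean of log2(CPM + 1) over 42 members (all but Kif11 and Kifc1), points are libraries, and bars are the mean ± SD of 3 libraries; the 3 CKO libraries of spleen CD8 lie between 3.93 and 4.37, above the WT libraries at 3.21 to 3.30.

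Within WT thymus the whole set fell between the DP and CD4 SP stages. All 43 members tested were lower in CD4 SP than in DP, against 18.1% of the 11826 genes tested (edgeR's quasi-likelihood test, adjusted p under 0.05 by Benjamini-Hochberg, as throughout). The median log2 fold change was -1.37, and it ran from -1.84 for Cenpf to -0.77 for Kif23. Cenpf, a kinetochore protein, stood at 67.8, 42.02 and 55.6 CPM in WT CD4 SP, against 164, 239.5 and 193 CPM in WT DP. Its log2 fold change was -1.84 ± 0.172 (SE), adjusted p = 4.21e-06. Kif2c, a kinesin that takes microtubules apart, changed by a log2 of -1.69 ± 0.163 (SE), adjusted p = 5.57e-06, and Cenpe, a kinetochore motor, by -1.60 ± 0.154 (SE), adjusted p = 5.67e-06. Plk1, the Polo-like kinase, stood at 35.1, 31.98 and 47.01 CPM in WT CD4 SP and at 71.5, 118 and 132 CPM in WT DP. Its log2 fold change was -1.49 ± 0.201 (SE), adjusted p = 8.91e-05. Of the other members with the smallest p, the log2 fold changes were -1.45 for Kif22, -1.39 for Anln, -1.44 for Nusap1 and -1.42 for Ccnb2, the partner of Cdk1 beside Ccnb1. Cd8a was still at 1106 to 1540 CPM in these WT CD4 SP libraries, and the part of DP cells in the stage difference was not tested.

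Between the lineages of WT spleen members were called in both directions, and no more often than genes at large by much. Of 43 members tested, 3 were higher in CD8 than in CD4, against 15.3% of the 14131 genes tested, and 8 were lower, against 16.5%. The share of members lower was thus near that of all genes, and the share higher was below it. Racgap1, a subunit of the centralspindlin complex that organises the division plane, stood at 125, 128 and 129 CPM in WT CD8, against 22.2, 20.5 and 22.9 CPM in WT CD4. Its log2 fold change was 2.53 ± 0.0659 (SE), adjusted p = 1.13e-10. Kif23, the kinesin that pairs with Racgap1 in centralspindlin, stood at 32.4, 31.5 and 32.7 CPM in WT CD8, against 16.2, 18.9 and 16.15 CPM in WT CD4 (log2 fold change 0.90 ± 0.0901 SE, adjusted p = 9.45e-06). Mad2l1, the checkpoint protein that holds back Cdc20, was the third, at a log2 of 0.33 ± 0.114 (SE), adjusted p = 0.0431. The lower members were Mki67, Top2a, Ccna2, Aurkb, Cenpf, Kif11, Prc1 and Hmmr. Their log2 fold changes ran from -0.86 for Hmmr, a spindle protein, to -0.29 for Top2a. Mki67, the source of the proliferation antigen Ki-67, stood at 77.6, 65.8 and 63.1 CPM in WT CD8, against 99.5, 92.7 and 97.2 CPM in WT CD4. The number of members called lower was 5 without WT CD4 67, 10 without WT CD4 70 and 4 without WT CD4 71. It was 7 without WT CD8 67, 6 without WT CD8 70 and 3 without WT CD8 71. With the mouse number fitted as a block it was 10. Genes lower in all were 1971 to 2139 without each library and 2561 with the block. Racgap1 and Kif23 stayed called higher without any of the 6 libraries, while Mad2l1 lost its call in 5 of those 6 fits. Markers of other cells and states differed between the same libraries. Of 8 myeloid markers 0 were higher and 7 lower in WT CD8, with 13.6 to 22.3 CPM summed in WT CD8, against 61.8 to 92.3 CPM in WT CD4. Of 13 effector T cell markers 10 were higher and 1, Ifng, lower, with 1210 to 1434 CPM summed in WT CD8, against 559 to 609 CPM in WT CD4. The part of these markers in the members' values was not tested.

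In spleen CD8 nearly the whole set was higher in CKO mice. Of 43 members tested, 39 were called higher and 0 lower, against 9.83% and 6.22% of the 13917 genes tested. The median log2 fold change of the members was 1.19, a 2.28-fold difference, against -0.0125 for all genes tested. Every CKO library lay above every WT library in 41 of the 43, against 18.3% of all genes tested. The 4 members that did not pass were Aurka, Cenpa, Mad2l1 and Kif23. Kifc1 was not tested, with 14, 27 and 7 reads in CKO libraries against 0, 0 and 5 reads in WT libraries. CKO 68 was the lowest CKO library in 39 of 44 members. Leaving out any of the 6 libraries left 33 to 39 members called higher, with 844 to 1320 genes higher in all.

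**Figure D2:**
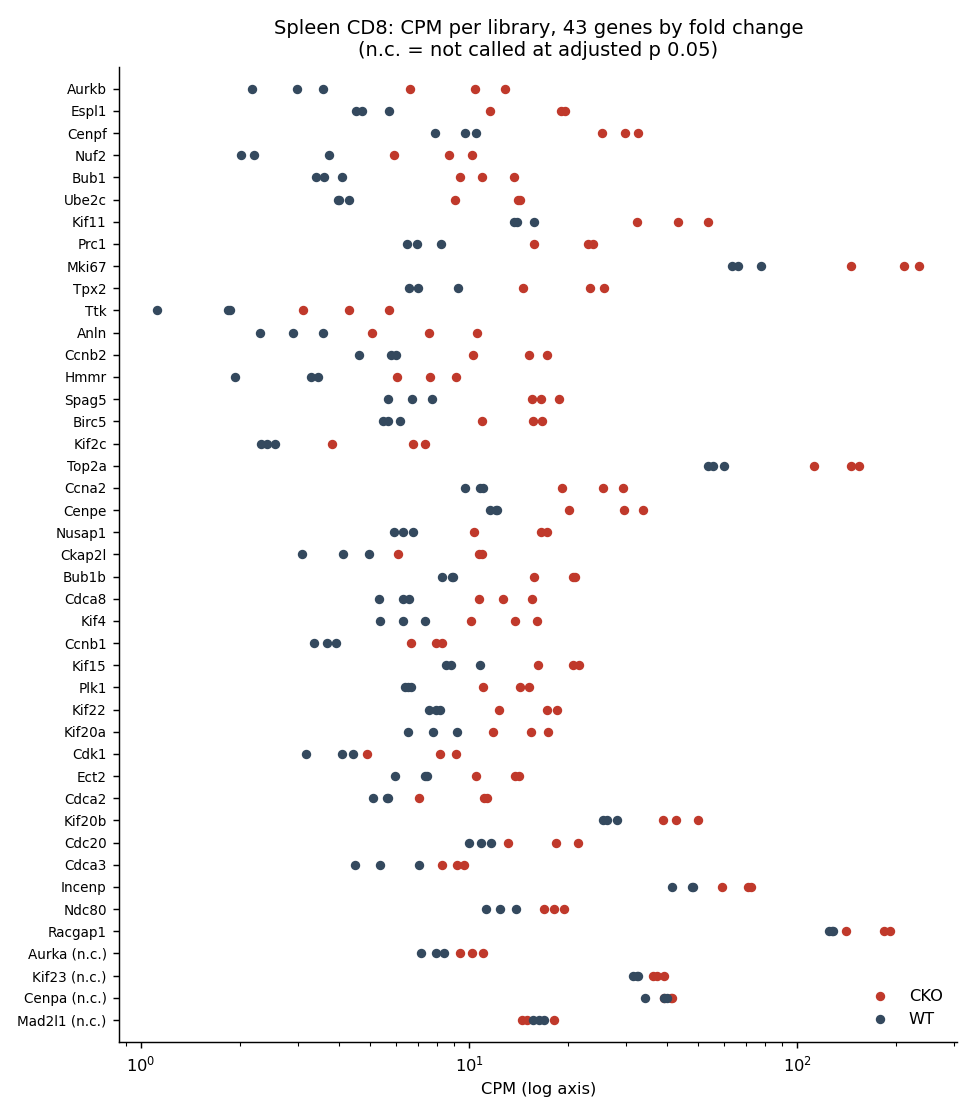
Spleen CD8, CPM per library on a log axis for the 43 members tested, ordered by fold change from Aurkb at the top to Mad2l1; red points are the 3 CKO libraries and dark points the 3 WT libraries. Red and dark points are apart in all rows but those of Cenpa and Mad2l1.

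Mki67 had 211, 146 and 236 CPM in CKO libraries, against 77.6, 65.8 and 63.1 CPM in WT libraries. Top2a, the topoisomerase that untangles replicated DNA so that chromosomes can condense, had 146, 112 and 154 CPM in CKO libraries, against 59.9, 55.4 and 53.4 CPM in WT libraries. The groups did not overlap in either gene, and CKO 68 was the lowest CKO library in both. The log2 fold change was 1.52 ± 0.153 (SE), adjusted p = 0.000171 for Mki67 and 1.29 ± 0.111 (SE), adjusted p = 0.000112 for Top2a.

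All 4 genes of the cyclin role rose. Cdk1, the kinase of mitotic entry, had 8.14, 4.87 and 9.11 CPM in CKO libraries, against 4.11, 4.43 and 3.17 CPM in WT libraries. Ccnb1, encoding its partner cyclin B1, had 8.29, 6.66 and 7.91 CPM in CKO libraries, against 3.36, 3.93 and 3.68 CPM in WT libraries. The lowest CKO value of Cdk1 was close to the highest WT value, while those of Ccnb1 were well apart. Cdk1 changed by a log2 of 0.92 ± 0.249 (SE), adjusted p = 0.0293, and Ccnb1 by 1.06 ± 0.178 (SE), adjusted p = 0.00262. Cdk1 lost its call when any library but CKO 68 was left out, with adjusted p between 0.0557 and 0.115. Ccna2, encoding cyclin A2, had 29.4, 19.1 and 25.6 CPM in CKO libraries, against 11.1, 9.72 and 10.8 CPM in WT libraries, a log2 of 1.24 ± 0.155 (SE), adjusted p = 0.000543.

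Of the 9 mitotic kinases and passenger proteins 8 rose, with a median log2 of 1.15. Aurkb, the kinase of the chromosomal passenger complex, had 12.8, 6.58 and 10.4 CPM in CKO libraries, against 3.58, 2.18 and 2.98 CPM in WT libraries. It had the highest fold change of the set, a log2 of 1.77 ± 0.267 (SE), adjusted p = 0.00143. Plk1 had 15.3, 10.99 and 14.3 CPM in CKO libraries, against 6.53, 6.38 and 6.66 CPM in WT libraries, and Birc5 had 16.7, 10.9 and 15.7 CPM in CKO libraries, against 5.47, 5.68 and 6.16 CPM in WT libraries. Their groups were apart, with log2 fold changes of 1.05 ± 0.156 (SE), adjusted p = 0.00125 for Plk1 and 1.33 ± 0.176 (SE), adjusted p = 0.000767 for Birc5. Bub1, a checkpoint kinase at the kinetochore, had 10.9, 9.39 and 13.7 CPM in CKO libraries, against 4.11, 3.42 and 3.6 CPM in WT libraries, and Bub1b, encoding its relative BubR1, had 20.8, 15.8 and 21.1 CPM in CKO libraries, against 8.87, 8.95 and 8.24 CPM in WT libraries. Both were higher in each CKO library, at a log2 of 1.61 ± 0.185 (SE), adjusted p = 0.000333 for Bub1 and 1.15 ± 0.141 (SE), adjusted p = 0.000482 for Bub1b. Incenp and Cdca8, the scaffold and partner of Aurkb, stood at 0.56 and 1.10 on the log2 scale, and Ttk, which starts checkpoint signalling, at 1.44. Aurka, the kinase of spindle poles, did not pass, with 9.38, 10.99 and 10.2 CPM in CKO libraries, against 8.38, 7.16 and 7.93 CPM in WT libraries and a log2 of 0.38 ± 0.144 (SE), adjusted p = 0.0987.

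Of 7 kinetochore and checkpoint genes 5 rose. Cenpf had 29.9, 25.3 and 32.8 CPM in CKO libraries, against 9.695, 10.5 and 7.86 CPM in WT libraries, a log2 of 1.65 ± 0.142 (SE), adjusted p = 0.000112. Cenpe, which walks chromosomes along microtubules, had 29.7, 20.2 and 33.8 CPM in CKO libraries, against 12.1, 12.1 and 11.6 CPM in WT libraries. The groups were apart in both, and Cenpe changed by a log2 of 1.23 ± 0.169 (SE), adjusted p = 0.000865. Spag5, encoding the spindle protein astrin, had 18.8, 16.6 and 15.6 CPM in CKO libraries, against 7.73, 6.69 and 5.65 CPM in WT libraries, a log2 of 1.35 ± 0.152 (SE), adjusted p = 0.000323. Nuf2 and Ndc80 encode partners in a shared microtubule-binding complex of the kinetochore. They were both called but differed in size, at 1.64 ± 0.28 for Nuf2 and 0.54 ± 0.125 for Ndc80 (log2 ± SE). Cenpa, the histone H3 variant that marks centromeres, had 41.6, 41.2 and 39.2 CPM in CKO libraries, against 40.1, 34.3 and 39.2 CPM in WT libraries. Mad2l1 had 14.97, 14.5 and 18.1 CPM in CKO libraries, against 16.9, 16.4 and 15.7 CPM in WT libraries. The groups of Cenpa and Mad2l1 overlapped, with log2 fold changes of 0.11 ± 0.0889 (SE), adjusted p = 0.458 for Cenpa and -0.037 ± 0.123 (SE), adjusted p = 0.877 for Mad2l1.

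Of 8 kinesin motors tested 7 rose. Kif11, the motor that pushes spindle poles apart, had 43.2, 32.6 and 53.4 CPM in CKO libraries, against 13.96, 15.8 and 13.7 CPM in WT libraries. Its groups were far apart and its log2 fold change was 1.57 ± 0.162 (SE), adjusted p = 0.000196. The chromosome-bound motors Kif22 and Kif4 stood at 1.03 and 1.08 on the log2 scale. Kif2c stood at 1.29, Kif15, which backs up Kif11 on the spindle, at 1.06, and the late-mitotic motors Kif20a and Kif20b at 0.93 and 0.72. Kif23 had 37.3, 36.4 and 39.2 CPM in CKO libraries, against 32.4, 31.5 and 32.7 CPM in WT libraries, which did not overlap but did not pass, at a log2 of 0.23 ± 0.0828 (SE), adjusted p = 0.0884.

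All 5 genes of spindle assembly and the midzone rose, with a median log2 of 1.39. Prc1, which bundles the microtubules between separating chromosomes, had 22.96, 15.7 and 23.8 CPM in CKO libraries, against 8.19, 6.46 and 6.93 CPM in WT libraries, a log2 of 1.54 ± 0.174 (SE), adjusted p = 0.000323. Tpx2, the activator of Aurora A on the spindle, stood at 1.49, Hmmr at 1.39, Nusap1 at 1.22 and Ckap2l at 1.19 on the log2 scale.

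All 5 genes of anaphase and sister separation rose. Espl1, encoding separase, had 19.02, 11.6 and 19.7 CPM in CKO libraries, against 4.53, 4.71 and 5.69 CPM in WT libraries, a log2 of 1.75 ± 0.208 (SE), adjusted p = 0.000408. Ube2c, the ubiquitin-conjugating enzyme of the anaphase promoting complex, had 14.1, 9.08 and 14.3 CPM in CKO libraries, against 4.3, 4.01 and 3.99 CPM in WT libraries, a log2 of 1.61 ± 0.195 (SE), adjusted p = 0.000457. Cdc20, the activator of that complex, had 21.5, 13.1 and 18.3 CPM in CKO libraries, against 10.9, 9.996 and 11.7 CPM in WT libraries. The groups were apart in each of the 3 genes, least so in Cdc20, at 0.70 ± 0.171 (SE), adjusted p = 0.018. Cdc20 lost its call without WT 67, WT 70 or CKO 72 and in the fit over all 12 spleen libraries, with adjusted p between 0.0621 and 0.0741. Cdca2 stood at 0.85 and Cdca3 at 0.68.

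All 3 cytokinesis genes rose. Anln, the scaffold of the contractile ring, stood at a log2 of 1.40 and Ect2, which acts at the division plane, at 0.90. Racgap1 had 184, 141 and 191 CPM in CKO libraries, against 125, 128 and 129 CPM in WT libraries, a log2 of 0.44 ± 0.102 (SE), adjusted p = 0.0146. All CKO libraries lay above all WT libraries, and its log2 fold change was the smallest of the 3.

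Other genes of the division machinery were taken from lists set beside the members. Of all 13917 genes tested in spleen CD8, 9.83% were higher and 6.22% lower. These shares stand beside every list count given below for spleen CD8, and several of the lists are near them. Among condensin subunits 5 of 8 tested rose and 1, Ncapd3, fell; Ncapg had 14.1, 13.7 and 16.9 CPM in CKO libraries, against 4.79, 6.18 and 4.64 CPM in WT libraries, a log2 of 1.52 ± 0.165 (SE), adjusted p = 0.000272. Ncapd2 stood at 0.65 and Ncapg2 at 0.88. Among genes of cohesin and its control 4 of 13 rose and 0 fell, with the cohesin protector Sgol1 at 1.17, the acetyltransferase Esco2 at 1.16 and Cdca5 at 1.39. Of 32 further kinetochore and checkpoint genes 10 rose and 0 fell, with the scaffold Casc5 at 1.67. Of 16 subunits and partners of the anaphase promoting complex 3 rose and 0 fell, with Anapc2 at 0.34. Of 12 phosphatases and kinases of mitotic entry 7 rose and 0 fell. Cdc25b, which removes the inhibitory phosphates of Cdk1, had 149, 124 and 142 CPM in CKO libraries, against 90.8, 88.4 and 85.3 CPM in WT libraries, a log2 of 0.65 ± 0.0796 (SE), adjusted p = 0.000457; its relative Cdc25c stood at 2.20 and the centrosome kinase Nek2 at 1.35. Of 19 regulators of cell cycle transcription 7 rose and 0 fell. Foxm1, a transcription factor of mitotic genes, had 22.6, 24.1 and 24.97 CPM in CKO libraries, against 9.51, 12.2 and 12.5 CPM in WT libraries, a log2 of 1.07 ± 0.129 (SE), adjusted p = 0.000443. E2f2 had 71.6, 50.6 and 72.9 CPM in CKO libraries, against 18.4, 20.3 and 19.1 CPM in WT libraries and stood at 1.76, and E2f7 stood at 1.94. Among CDK inhibitors 1 of 8, Cdkn2c, rose (0.74), and among G1 cyclins, kinases and their inducer Myc 3 of 9 rose (Cdk6 at 0.69, Cdk2 at 0.44 and Ccnd3 at 0.29) and Myc fell, at -0.27.

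DNA replication genes gave calls in a single direction too. Of 38 tested, 10 rose and 0 fell, with a median log2 of 0.15, against 39 of 43 and 1.19 for the members. Uhrf1 takes part in the copying of DNA methylation to new strands. It had 43.5, 41.1 and 47.9 CPM in CKO libraries, against 24.9, 23.9 and 26.2 CPM in WT libraries, a log2 of 0.82. Mcm5, a subunit of the replicative helicase, had 99.5, 102 and 108 CPM in CKO libraries, against 78.3, 73.9 and 77.4 CPM in WT libraries, a log2 of 0.43, and Mcm10 stood at 1.31. The members' mean log2(CPM + 1) minus that of the replication genes was -0.39, -0.74 and -0.42 in CKO libraries, against -1.25, -1.25 and -1.27 in WT libraries. The distance between the lists was smaller in every CKO library, and this difference was not put to a test.

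Markers of other cell states moved in the same libraries. Of 13 effector T cell markers 12 were called higher in CKO spleen CD8 and 0 lower, and their summed level was 2111 to 2884 CPM in CKO libraries, against 1210 to 1434 CPM in WT libraries. CKO 68, the lowest CKO library for most members, was also the lowest CKO library for this list, at 2111 CPM. Of 9 mature T cell markers 5 fell and 0 rose, with 4871 to 5197 CPM summed in CKO and 5840 to 6102 CPM in WT. Of 8 myeloid markers 3 rose, with 30.2 to 57.9 CPM summed in CKO and 13.6 to 22.3 CPM in WT. Natural killer markers summed to 104 to 146 CPM in CKO and 91.3 to 96.4 CPM in WT, with 2 of 4 called higher. Of 7 immature thymocyte markers 3 rose (Kit, Cd24a and Il2ra), and 0 of 9 double-positive markers were called. B cell markers summed to 23.8 to 27.8 CPM in CKO and 20.4 to 27.9 CPM in WT, with 0 of 6 called. The part of these cell types in the members' values was not tested.

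In spleen CD4 the set was called only in small part. Of 44 members tested, 2 were higher and 0 lower, against 8.53% and 5.63% of the 14292 genes tested, and 11 were higher at an unadjusted p under 0.05, against 15.7% of all genes. The median log2 fold change was 0.36, a 1.28-fold difference, against -0.0057 for all genes tested. The median rested on CKO 65: without it the median log2 was 0.024 and 1 member was called higher, with 1232 genes higher in all. Without CKO 68 the median was 0.56 and 10 members were called higher, with 1158 genes higher in all. Effector markers, of which 3 of 13 were called higher and 2 lower, summed to 426 to 600.5 CPM in CKO and 559 to 609 CPM in WT. Summed myeloid markers were 102 to 248.5 CPM in CKO and 61.8 to 92.3 CPM in WT, with 8 of 8 called higher, and CKO 65 was between the other CKO libraries at 174 CPM. Their part in the members' values was not tested.

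The called members were Kif20b and Racgap1. Kif20b, a kinesin that acts late in mitosis, had 38.9, 32.4 and 28.8 CPM in CKO libraries, against 22.5, 22.3 and 24.3 CPM in WT libraries. Racgap1 had 48.6, 24.3 and 34.2 CPM in CKO libraries, against 22.2, 20.5 and 22.9 CPM in WT libraries. Every CKO library lay above every WT library in both, with log2 fold changes of 0.54 ± 0.114 (SE), adjusted p = 0.00881 for Kif20b and 0.71 ± 0.19 (SE), adjusted p = 0.0275 for Racgap1. Kif20b kept its call without any of the 6 libraries. Racgap1 kept it only without CKO 68, with adjusted p between 0.054 and 0.107 without each of the others. Non-overlap of this kind was seen in 5 members, against 17.3% of all genes tested.

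The members given next passed in neither direction, and CKO 65 was the highest CKO library in each of those given in CPM. Mki67 had 203, 95.9 and 118 CPM in CKO libraries, against 99.5, 92.7 and 97.2 CPM in WT libraries, and Top2a had 126, 64.8 and 72.6 CPM in CKO libraries, against 70.1, 61.02 and 73.5 CPM in WT libraries. CKO 65 was about as high as the CKO libraries of spleen CD8, while CKO 68 and CKO 72 lay nearer to WT. Their log2 fold changes were 0.53 ± 0.202 (SE), adjusted p = 0.107 for Mki67 and 0.37 ± 0.194 (SE), adjusted p = 0.239 for Top2a. Cdk1 had 9.03, 3.96 and 4.77 CPM in CKO libraries, against 6.04, 3.94 and 4.44 CPM in WT libraries (log2 fold change 0.31 ± 0.296 SE, adjusted p = 0.552), and Ccnb1 had 9.86, 2.77 and 5.01 CPM in CKO libraries, against 6.38, 3.53 and 5.29 CPM in WT libraries (log2 fold change 0.22 ± 0.375 SE, adjusted p = 0.749). Both overlapped, and without CKO 65 their log2 was -0.14 for Cdk1 and -0.38 for Ccnb1. Aurkb had 11.2, 4.44 and 5.17 CPM in CKO libraries, against 4.09, 5.23 and 4.66 CPM in WT libraries (log2 fold change 0.57 ± 0.306 SE, adjusted p = 0.243), and Plk1 had 15.9, 8.88 and 8.04 CPM in CKO libraries, against 7.07, 6.41 and 8.99 CPM in WT libraries (log2 fold change 0.55 ± 0.246 SE, adjusted p = 0.164). Birc5 had 14.3, 5.27 and 7.35 CPM in CKO libraries, against 5.58, 5.08 and 6.06 CPM in WT libraries (log2 fold change 0.69 ± 0.299 SE, adjusted p = 0.151). In each of these 3 kinase and passenger genes CKO 65 alone stood far above WT. Bub1 had 11.4, 4.44 and 4.48 CPM in CKO libraries, against 3.67, 3.41 and 5.29 CPM in WT libraries (log2 fold change 0.72 ± 0.346 SE, adjusted p = 0.196), and Cenpf had 28.1, 13.2 and 14.9 CPM in CKO libraries, against 15.1, 11.1 and 12.2 CPM in WT libraries (log2 fold change 0.56 ± 0.241 SE, adjusted p = 0.151). Kif11 had 41.7, 19.9 and 25.9 CPM in CKO libraries, against 20.1, 20.6 and 25.9 CPM in WT libraries (log2 fold change 0.40 ± 0.214 SE, adjusted p = 0.248). The groups overlapped in all 3. Cdc20 had 17.6, 7.13 and 9.78 CPM in CKO libraries, against 8.099, 9.71 and 10.5 CPM in WT libraries (log2 fold change 0.29 ± 0.266 SE, adjusted p = 0.532), and Espl1 had 12.9, 6.14 and 7.72 CPM in CKO libraries, against 5.58, 6.52 and 6.79 CPM in WT libraries (log2 fold change 0.50 ± 0.245 SE, adjusted p = 0.202). Kifc1 was at 7 to 20 reads in every library of spleen CD4. Without CKO 65 the log2 of Cdc20 was -0.16.

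Other genes of the machinery gave few calls in spleen CD4, where 8.53% of all 14292 genes tested were higher and 5.63% lower. None of 8 condensin genes passed (0 higher and 0 lower), 1 of 13 cohesin genes, Stag1, was lower, and 1 of 32 further kinetochore genes, Zw10, was higher. Anaphase promoting complex genes had 3 of 16 higher (Anapc2, Anapc4 and Anapc15), and regulators of cell cycle transcription 2 of 19 higher (E2f2 and Tfdp1). Genes of mitotic entry had 2 of 12 higher (Cdc25b and Bora) and 1 lower (Plk4). CDK inhibitors had 1 of 8 higher (Cdkn2d), and G1 cyclins and kinases 1 of 9 higher (Ccnd3). Of 38 DNA replication genes 0 were higher and 1, Mcm6, was lower.

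**Figure D3:**
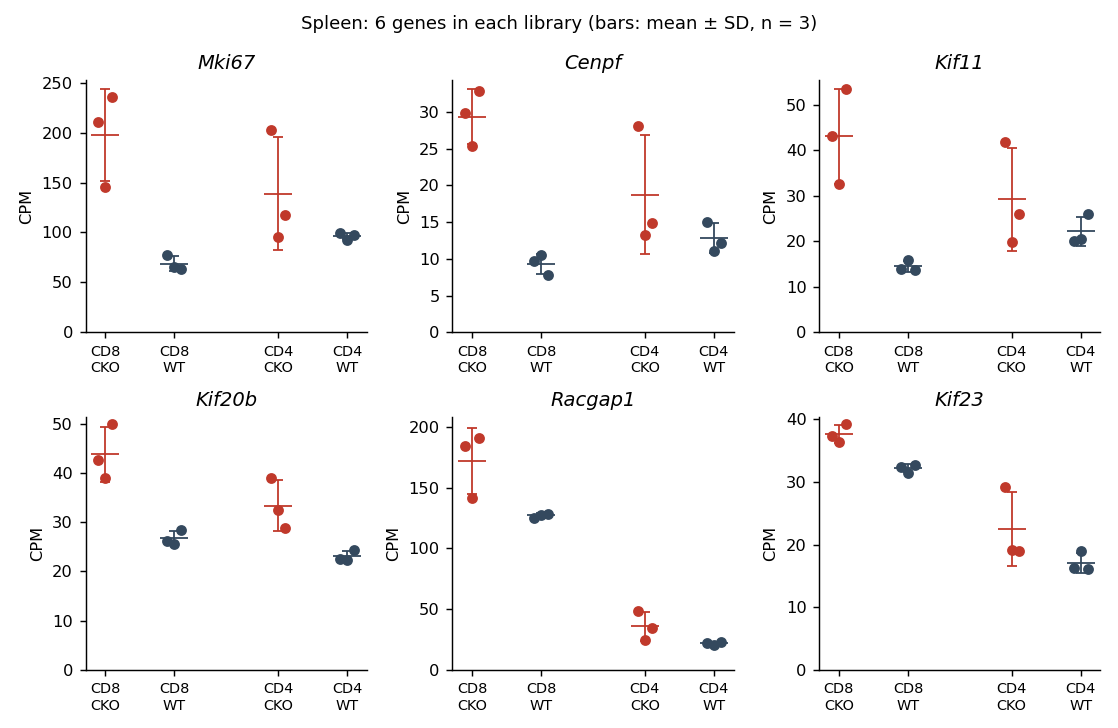
CPM of 6 members in the spleen, each axis from 0; points are libraries and bars the mean ± SD of 3 libraries, CKO in red and WT in dark. In spleen CD4 the highest CKO point is CKO 65 in all 6 genes, and Racgap1 is at 125 to 191 CPM in CD8 libraries of either genotype, against 20.5 to 48.6 CPM in CD4 libraries.

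Whether the CKO difference was larger in CD8 than in CD4 was tested as an interaction over the 12 spleen libraries. Without the mouse as a block 0 members passed in either direction, against 1.81% of the 14958 genes tested that were higher and 0.749% that were lower, and 19 were higher at an unadjusted p under 0.05, against 6.61% of all genes. With the mouse as a block, since each mouse gave both populations, 21 of 44 members were called higher and 0 lower, and 672 genes were higher and 411 lower in all. The median log2 of the difference was 0.80 without the block and 0.85 with it. Mki67 had a difference of 0.99 ± 0.302 (SE), adjusted p = 0.114, and 1.04 ± 0.16 (adjusted p = 0.000689) with the block. Kif11 had 1.18 ± 0.314 (SE), adjusted p = 0.0654, and 1.20 ± 0.21 (adjusted p = 0.0015) with the block. Espl1 had 1.25 ± 0.354 (SE), adjusted p = 0.0847, and 1.27 ± 0.22 (adjusted p = 0.00142) with the block. Both Cdk1 (a log2 difference of 0.61 ± 0.428 SE, adjusted p = 0.642) and Cdc20 (a log2 difference of 0.42 ± 0.361 SE, adjusted p = 0.748) stayed under the threshold in each fit, with adjusted p = 0.262 for Cdk1 and 0.185 for Cdc20 with the block. Racgap1 and Kif23 were the members with a difference below 0, at -0.27 ± 0.245 for Racgap1 and -0.17 ± 0.194 for Kif23 on the log2 scale. Leaving out both libraries of mouse CKO 65 gave a median of 1.08 and 16 members called higher without a block, with 381 genes higher and 175 lower in all.

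In thymus DP 0 members passed in either direction, although all lay below 0 in the fit. The shares of all 11634 genes tested that passed were 0.0172% higher and 0.0086% lower. All 43 members tested had a log2 fold change below 0, against 49.1% of all genes, and 34 had an unadjusted p under 0.05, against 3.83% of all genes that were lower at that level. The median log2 was -0.37, a 0.776-fold difference, and it ran from -0.55 for Cenpf to -0.17 for Mad2l1, against 0.00303 for all genes. WT 15 was the lowest WT library in all 43 members, and WT 18 and WT 24 lay above all CKO libraries in all 43. Without WT 15 the median was -0.53 and 21 members were called lower, with 38 genes lower in all. Without WT 18 the median was -0.27. With DESeq2 in place of edgeR 5 members were called lower, with 12 genes lower in all.

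Mki67 had 917, 912 and 916 CPM in CKO libraries, against 960.1, 1478 and 1191 CPM in WT libraries. Cenpf had 134, 136 and 136 CPM in CKO libraries, against 164, 239.5 and 193 CPM in WT libraries. In both, every CKO library lay below every WT library, which held for 10 members, against 5.94% of all genes. The log2 fold change was -0.40 ± 0.124 (SE), adjusted p = 0.66 for Mki67 and -0.55 ± 0.111 (SE), adjusted p = 0.66 for Cenpf. Top2a had 815, 673 and 809.5 CPM in CKO libraries, against 738, 1059 and 1084 CPM in WT libraries (log2 fold change -0.33 ± 0.133 SE, adjusted p = 0.693), and Bub1 had 66.99, 62.99 and 63.6 CPM in CKO libraries, against 64.4, 98.2 and 96.05 CPM in WT libraries (log2 fold change -0.42 ± 0.136 SE, adjusted p = 0.66). Cdc20 had 162, 144 and 174 CPM in CKO libraries, against 171, 242 and 246 CPM in WT libraries (log2 fold change -0.46 ± 0.125 SE, adjusted p = 0.66). In these 3 WT 15 lay within the CKO range. Cdk1 had 80.5, 70.04 and 77.8 CPM in CKO libraries, against 77.6, 107 and 104 CPM in WT libraries (log2 fold change -0.34 ± 0.114 SE, adjusted p = 0.66), and Ccnb1 had 57.2, 48.4 and 62.2 CPM in CKO libraries, against 53.4, 78.7 and 84.2 CPM in WT libraries (log2 fold change -0.36 ± 0.153 SE, adjusted p = 0.693). Aurkb had 84.7, 75.3 and 80.04 CPM in CKO libraries, against 76.1, 124 and 119 CPM in WT libraries (log2 fold change -0.41 ± 0.148 SE, adjusted p = 0.66). The groups overlapped through WT 15 in each. Plk1 had 83.6, 69.8 and 91.9 CPM in CKO libraries, against 71.5, 118 and 132 CPM in WT libraries (log2 fold change -0.39 ± 0.182 SE, adjusted p = 0.712), and Birc5 had 99.7, 82.04 and 106 CPM in CKO libraries, against 88.6, 140.2 and 127 CPM in WT libraries (log2 fold change -0.31 ± 0.147 SE, adjusted p = 0.716). Espl1 had 116, 119.5 and 105 CPM in CKO libraries, against 102, 168 and 152 CPM in WT libraries (log2 fold change -0.31 ± 0.145 SE, adjusted p = 0.711). WT 15 was below the median CKO library in these 3. Kifc1 had 97.2, 88.4 and 99.5 CPM in CKO libraries, against 90.1, 141 and 141 CPM in WT libraries (log2 fold change -0.38 ± 0.142 SE, adjusted p = 0.668), with the doubt about its copy.

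The other lists gave 0 calls in either direction in thymus DP. Their medians were -0.27 for 8 condensin genes, -0.32 for 10 genes of mitotic entry, -0.19 for 19 regulators of transcription and -0.20 for 39 DNA replication genes (log2). Marker lists differed in the same libraries: immature thymocyte markers summed to 935 to 1007 CPM in CKO and 1034 to 1086 CPM in WT, and mature T cell markers to 662 to 685 CPM in CKO and 535 to 606 CPM in WT. The double-positive markers overlapped, at 12780 to 15170 CPM in CKO and 13250 to 14900 CPM in WT. Ddx3y, a transcript of the Y chromosome, stood at 154 CPM in CKO 17 and 162 CPM in WT 18, against 0 to 3.94 CPM in the other libraries. Myeloid markers summed to 17.4 to 20.5 CPM in CKO and 10.9 to 15.7 CPM in WT. The part of these markers and of sex in the members' values was not tested.

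In thymus CD4 SP 0 members passed in either direction, and 0 of the 11839 genes tested did (0% higher and 0% lower). Of the 43 members 11 were lower at an unadjusted p under 0.05, against 1.27% of all genes. The median log2 was -0.25, against 0.0205 for all genes, but the members split: 19 were above 0, against 52.1% of all genes, and 24 below, from 0.53 for Cdc20 to -1.37 for Cenpf. The split came with CKO 14. CKO 17 lay below every WT library in all 43 members and CKO 23 in 40. CKO 14 lay above every WT library in 25 members and below every WT library in 15. Without CKO 14 all 43 members were below 0, with a median of -0.98 and still 0 called.

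Within CKO 14 the members divided by base composition. Kif20b, whose longest coding transcript is 39.4% G and C, stood at 0.0743 of the WT mean in CKO 14, and Cenpf (43.3%) at 0.166. Cdc20 (55.6%) stood at 3.28 times the WT mean and Plk1 (56.0%) at 2.98 times. Of 21 members above the median GC of 47.4%, 20 were above the WT mean in CKO 14, with a median ratio of 2.26. Of the 22 others 7 were above it, with a median ratio of 0.592. The same groups had median ratios of 0.316 and 0.361 in CKO 17, and of 0.645 and 0.688 in CKO 23. Across the 43 members Spearman's rank correlation between GC and the log2 ratio to WT was 0.801 in CKO 14, -0.216 in CKO 17 and -0.372 in CKO 23. Across 9426 genes it was 0.616 in CKO 14, and longer transcripts stood lower there, with a rank correlation of -0.397 for length. These are correlations across genes of a library, which are not independent replicates, and WT 15 also had a rank correlation of -0.593 with GC across all genes.

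**Figure D4:**
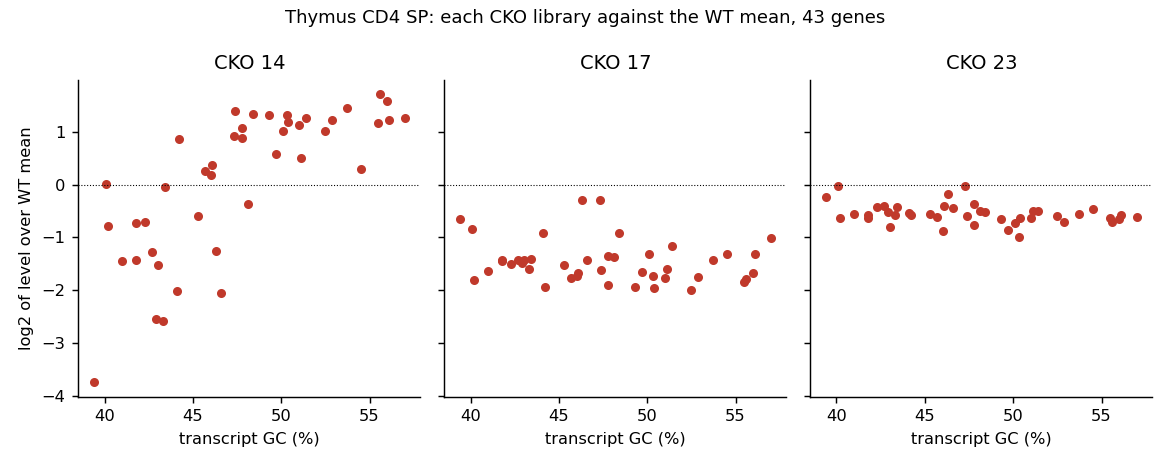
Thymus CD4 SP, the 43 members in each CKO library; the x axis is the percent G and C of the longest coding transcript and the y axis the log2 ratio of the CPM to the mean of the 3 WT libraries. In CKO 14 the ratio climbs with GC (rank correlation 0.801), while in CKO 17 and CKO 23 all members lie below 0.

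Mki67 had 103, 159 and 317 CPM in CKO libraries, against 499, 322 and 469.8 CPM in WT libraries. Cenpf had 9.13, 18.2 and 36.8 CPM in CKO libraries, against 67.8, 42.02 and 55.6 CPM in WT libraries, and Bub1 had 13.1, 11.4 and 24.1 CPM in CKO libraries, against 37.7, 30.8 and 38.7 CPM in WT libraries. In these 3 each CKO library lay below each WT library, as in 14 members, against 5.38% of all genes. CKO 17 lay below every WT library in all 43 members and CKO 23 in 40, so which members separated depended mostly on CKO 14. The GC of Mki67, Cenpf and Bub1 is 46.6%, 43.3% and 41.0%, below the members' median of 47.4%. The log2 fold changes were -1.15 ± 0.42 (SE), adjusted p = 0.958 for Mki67, -1.37 ± 0.486 (SE), adjusted p = 0.958 for Cenpf and -1.12 ± 0.323 (SE), adjusted p = 0.958 for Bub1. Cdc20 had 250, 21.97 and 46.5 CPM in CKO libraries, against 72.7, 61.2 and 95.1 CPM in WT libraries (log2 fold change 0.53 ± 0.834 SE, adjusted p = 0.958), and Plk1 had 114, 11.9 and 24.1 CPM in CKO libraries, against 35.1, 31.98 and 47.01 CPM in WT libraries (log2 fold change 0.45 ± 0.778 SE, adjusted p = 0.958). Birc5 had 132, 16.3 and 33.2 CPM in CKO libraries, against 46.96, 47.9 and 56.6 CPM in WT libraries (log2 fold change 0.32 ± 0.713 SE, adjusted p = 0.958). CKO 14 was far above and CKO 17 far below WT in these 3. Aurkb had 90.3, 11.2 and 29.4 CPM in CKO libraries, against 39.03, 39.6 and 54.95 CPM in WT libraries (log2 fold change 0.021 ± 0.691 SE, adjusted p = 0.998), and Espl1 had 118, 20.1 and 33.7 CPM in CKO libraries, against 47.6, 42.02 and 61.5 CPM in WT libraries (log2 fold change 0.23 ± 0.638 SE, adjusted p = 0.96). Cdk1 had 68.9, 14.7 and 28.8 CPM in CKO libraries, against 35.4, 33.2 and 43.5 CPM in WT libraries (log2 fold change 0.046 ± 0.54 SE, adjusted p = 0.989). CKO 14 was again the highest library and CKO 17 the lowest. Ccnb1 had 41.97, 5.97 and 15.4 CPM in CKO libraries, against 22.7, 17.7 and 28.3 CPM in WT libraries (log2 fold change -0.068 ± 0.656 SE, adjusted p = 0.987), and Top2a had 361, 140.2 and 276 CPM in CKO libraries, against 373, 302 and 439.7 CPM in WT libraries (log2 fold change -0.49 ± 0.375 SE, adjusted p = 0.958). Kifc1 had 128, 26.7 and 34.9 CPM in CKO libraries, against 48.6, 49.2 and 63.6 CPM in WT libraries (log2 fold change 0.28 ± 0.6 SE, adjusted p = 0.958). CKO 17 was the lowest library in each of these, and CKO 14 lay within the WT range only in Top2a. Without CKO 14 the log2 was -1.17 for Cdc20, -1.09 for Plk1, -1.04 for Birc5, -1.15 for Aurkb and -0.80 for Cdk1.

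The libraries of this population also differed in their levels of DP thymocyte markers. Cd8a, which CD4 SP cells have shut off, stood at 2329, 44.1 and 954 CPM in CKO 14, CKO 17 and CKO 23, against 1220, 1106 and 1540 CPM in WT 15, WT 18 and WT 24. Summed DP markers were 11200, 1889 and 5583 CPM in those CKO libraries, against 5436 to 8357 CPM in WT libraries. The members' mean log2(CPM + 1) was 5.73, 4.25 and 5.12 in CKO 14, CKO 17 and CKO 23, against 5.67, 5.42 and 5.83 in WT 15, WT 18 and WT 24. The library with the least Cd8a, CKO 17, had the lowest member level, and CKO 23 was next in both. Mature T cell markers ran the other way, at 2360, 5012 and 3119 CPM in CKO 14, CKO 17 and CKO 23, against 1897 to 2824 CPM in WT libraries. Ddx3y stood at 213.5 CPM in CKO 17 and 166 CPM in WT 18, against 0 to 8.985 CPM in the other libraries of this population. CKO 17 was the lowest CKO library in 36 of 43 members, and WT 18 the lowest WT library in 34. The part of DP cells and of sex in the members' values was not tested. The other lists gave 0 calls, and so did the difference of the CKO effects, CD4 SP minus DP, over 12216 genes (0% higher and 0% lower, with 0 members called and a smallest adjusted p of 0.983).

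In thymus CD8 SP 1 member, Kifc1, was called higher in CKO mice and 0 lower. The shares of all 14911 genes tested that passed were 0.0335% higher and 0.0805% lower. Of 44 members 43 had a log2 fold change above 0, against 49.2% of all genes, and 25 were higher at an unadjusted p under 0.05, against 5.01% of all genes. The median log2 was 0.11, a 1.08-fold difference, against -0.00244 for all genes. Every CKO library lay above every WT library in 17 members, against 7.74% of all genes. WT 1 was the lowest WT library in 38 of 44 members and WT 3 the highest in 35. The lists of other division and replication genes gave 0 calls, with medians of 0.11 for condensin and for further kinetochore genes and 0.042 for DNA replication genes (log2). Mature T cell markers summed to 1068 to 1088 CPM in CKO and 1189 to 1388 CPM in WT. Cd4 stood at 44.8 to 55.8 CPM in CKO and 36.5 to 39.0 CPM in WT. Immature thymocyte markers summed to 1294 to 1402 CPM in CKO and 1343 to 1482 CPM in WT. Double-positive markers summed to 4127 to 4559 CPM in CKO and 3930 to 4138 CPM in WT. The part of these markers was not tested. Xist, which marks female cells, stood at 2151 and 1923 CPM in CKO 2 and CKO 3, against 4.33 CPM in CKO 1 and 3.77 to 5.28 CPM in WT. A fit without CKO 2 and CKO 3 holds 1 CKO library and cannot show the part of sex, which was not tested.

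Mki67 had 2496, 2559 and 2419 CPM in CKO libraries, against 2161, 2310 and 2359 CPM in WT libraries (log2 fold change 0.13 ± 0.0404 SE, adjusted p = 0.283). Top2a had 1682, 1769 and 1755 CPM in CKO libraries, against 1536, 1580 and 1749 CPM in WT libraries (log2 fold change 0.098 ± 0.0485 SE, adjusted p = 0.539). The CKO libraries all lay above WT in Mki67, and the groups overlapped in Top2a. Cdk1 had 111, 110.5 and 120.3 CPM in CKO libraries, against 98.7, 102 and 118 CPM in WT libraries (log2 fold change 0.097 ± 0.0682 SE, adjusted p = 0.685), and Ccnb1 had 146, 140.5 and 156 CPM in CKO libraries, against 128, 137 and 151 CPM in WT libraries (log2 fold change 0.089 ± 0.0623 SE, adjusted p = 0.687). Both overlapped. Aurkb had 149, 146 and 157 CPM in CKO libraries, against 128, 139 and 152 CPM in WT libraries (log2 fold change 0.11 ± 0.0611 SE, adjusted p = 0.6), and Plk1 had 150.5, 148 and 155 CPM in CKO libraries, against 131, 136 and 147 CPM in WT libraries (log2 fold change 0.13 ± 0.051 SE, adjusted p = 0.389). Birc5 had 155, 163 and 150 CPM in CKO libraries, against 142, 148 and 145 CPM in WT libraries (log2 fold change 0.11 ± 0.046 SE, adjusted p = 0.449). Plk1 and Birc5 did not overlap between the groups, by a few CPM, and Aurkb did. Bub1 had 182, 189.5 and 180.4 CPM in CKO libraries, against 167, 169 and 176 CPM in WT libraries (log2 fold change 0.11 ± 0.0427 SE, adjusted p = 0.393), and Cenpf had 361, 382 and 366 CPM in CKO libraries, against 316, 385 and 368 CPM in WT libraries (log2 fold change 0.053 ± 0.0643 SE, adjusted p = 0.833). Kif11 had 559, 567 and 564 CPM in CKO libraries, against 479.6, 534 and 575 CPM in WT libraries (log2 fold change 0.089 ± 0.0578 SE, adjusted p = 0.659). Bub1 was apart in the groups, and Cenpf and Kif11 were not. Cdc20 had 195, 189 and 168 CPM in CKO libraries, against 162, 169.6 and 182 CPM in WT libraries (log2 fold change 0.10 ± 0.0609 SE, adjusted p = 0.618), and Espl1 had 233, 232 and 224 CPM in CKO libraries, against 209.7, 207 and 226 CPM in WT libraries (log2 fold change 0.10 ± 0.0455 SE, adjusted p = 0.477). Both overlapped.

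Kifc1, a kinesin that walks toward the minus ends of microtubules, had 20.1, 6.45 and 21.7 CPM in CKO libraries, against 1.76, 3.83 and 1.91 CPM in WT libraries. All CKO libraries lay above all WT libraries, with CKO 2 closest to WT, and the log2 fold change was 2.67 ± 0.418 (SE), adjusted p = 0.045. The call was lost with the filter at 5 CPM in 3 libraries (adjusted p = 0.051), and without any of WT 1, WT 2, WT 3, CKO 1 or CKO 3 (adjusted p between 0.059 and 0.12). Its near copy Kifc5b had 92.9, 88.8 and 91.9 CPM in CKO libraries, against 76.3, 85.8 and 85.97 CPM in WT libraries. Summed over the pair the level was 113, 95.3 and 114 CPM in CKO libraries, against 78.1, 89.6 and 87.9 CPM in WT libraries. The groups stayed apart in the sum, where CKO 2 and WT 2 were closest. Kifc1 reads were 210 to 716 in CKO and 56 to 131 in WT thymus CD8 SP, against 420 to 2785 over the 12 libraries of the other thymus table. Between the thymus tables Kif11 and Kifc1 differed in opposite ways, which was not tested.

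**Figure D5:**
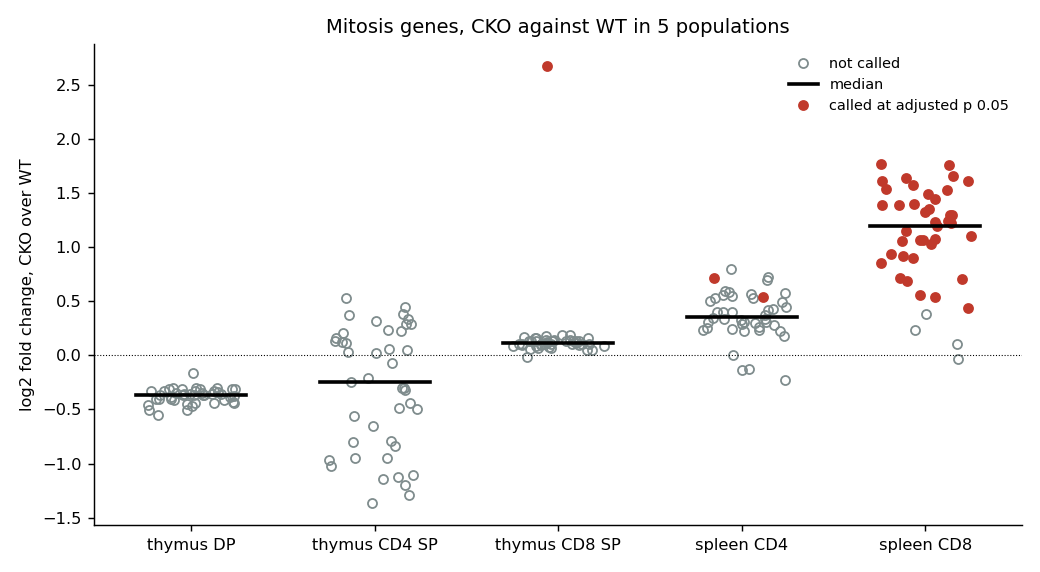
Log2 fold changes of the members, CKO over WT, in 5 populations (43 or 44 members each); filled red points passed at an adjusted p of 0.05, open points did not, and black lines are medians. The medians are -0.37 (thymus DP), -0.25 (CD4 SP), 0.11 (CD8 SP), 0.36 (spleen CD4) and 1.19 (spleen CD8).

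The counting's strand setting is not given in the sources used here. In RefSeq 12 of the 44 members share exonic bases with another annotated gene, most on the opposite strand, such as Kif20a with Cdc23, Prc1 with Rccd1 and Ccna2 with Exosc9. Their reads may hold some from the neighbour. Stretches of at least 300 bases over 90% identical to other annotated transcripts also occur in several members. Among them are Ccnb1 (99.223% with Ccnb1-ps), Cdc20 (93.651% with Gm7856) and Plk1 (93.491% with Plk-ps1). Racgap1 shares 98.156% of 488 aligned bases with another annotated transcript and 94.556% of 496 with Gm47929. Reads of such members could be split or shared.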

How the data were processed

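Poly(A) RNA of 30 sorted T cell libraries was sequenced, with 3 mice per genotype in each of 5 populations. The authors deposited raw counts per gene in 3 tables. HISAT2, HTSeq and the build GRCm38 appear, with no role or version, per the submitters' processing notes; the strand setting is not given in the sources used here. Nothing in the labels says more on replicates than the animal numbers. Total counts ran from 11865646 to 35353441, so that 10 counts stood for 0.2809 to 0.8319 CPM. No pair of replicates agreed within sampling noise.

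The counts were tested with edgeR 4.0.16 in R 4.3.3 (TMM, filterByExpr, quasi-likelihood test, Benjamini-Hochberg adjustment over all genes tested, threshold 0.05). Each population was fitted apart on 6 libraries, CKO over WT. The differences of CKO effects within the thymus (DP and CD4 SP) and the spleen were fitted on 12 libraries, and WT stages and lineages on 6. CPM uses TMM-scaled library sizes within a table, and the level of the set is the mean of log2(CPM + 1). SE is the log2 fold change over the square root of F. The fits were tested on simulated data first.

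The members and lists were chosen with earlier results of these data known. Genes given in every library are Prmt5, Mki67, Top2a, Cdk1, Ccnb1, Bub1, Cenpf, Kif11, Aurkb, Plk1, Cdc20, Birc5, Espl1 and Kifc1, and up to 6 further called members with the smallest p per comparison; of each other list up to 3 called genes are named. Genes outside this rule were chosen after their values were seen. Alternatives were DESeq2 1.42.0, its size factors, no filter, a filter at 5 CPM in 3 libraries, all 12 libraries in the fit, the replicate block, and leaving out each library. After seeing the data, more were added: leaving out CKO 2 and CKO 3 of thymus CD8 SP, and leaving out mouse CKO 65.

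The same mouse number joins spleen CD4 with CD8 and thymus DP with CD4 SP in the labels. Deviations from group means correlated at 0.124 to 0.471 for the same spleen mouse, against -0.351 to 0.0224 for different mice, and at -0.188 to 0.267 in the thymus, against -0.232 to 0.211. Promoters are from RefSeq GRCm38.p6, and similar transcripts were found with BLAST 2.17.0. GC and length are of the longest coding transcript, for 99.6% of genes with a mean of 5 CPM in thymus CD4 SP.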

Additional observations from a re-analysis of the deposited data

Results flagged for a closer look

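Some members lay apart in opposite directions in a pair of populations, every CKO library below every WT library in the one and above in the other. The share of all genes tested in both populations that did the same is given beside each count. This held for 10 of 42 members between thymus DP (below) and spleen CD8 (above), against 1.5% of genes. Between thymus DP (below) and thymus CD8 SP (above) it held for 4 of 43, against 0.577%, and between thymus DP (below) and spleen CD4 (above) for 4 of 43, against 1.33%. It held for 14 of 42 members between thymus CD4 SP (below) and spleen CD8 (above), against 1.44% of genes. Between thymus CD4 SP (below) and thymus CD8 SP (above) it held for 7 of 43, against 0.732%, and between thymus CD4 SP (below) and spleen CD4 (above) for 3 of 43, against 0.854%. Which members lay below in thymus CD4 SP depended mostly on the library CKO 14, whose ratios to WT followed GC. In the pairs with spleen CD8, the 10 and 14 members were all those that lay below in the thymus population. With 41 of 43 members above in spleen CD8, these counts restate the separate results. The difference between the populations of a pair was not tested, since none of the pairs was fitted together.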

How the results depend on the processing

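In spleen CD8 the members called higher were 36 to 40 under other tools, filters and the 12-library fit, and 33 to 39 without each library. All 43 members stayed lower in WT CD4 SP against DP under each alternative. With DESeq2 the calls in thymus DP were 8 genes higher and 12 lower, 5 of them members; thymus CD4 SP had 1 gene lower; thymus CD8 SP had 84 higher and 124 lower, with 3 members; the spleen difference had 428 higher and 207 lower, with 7 members. With no filter thymus DP had 2 genes lower, of which 1 a member, and thymus CD8 SP 180 higher and 270 lower with 4 members. Without that filter spleen CD4 had 1515 higher and 1203 lower with 16 members, and the spleen difference 574 higher and 270 lower with 18 members. With all 12 libraries thymus DP had 0 higher and 0 lower. With the filter at 5 CPM thymus CD8 SP had 3 genes higher and 0 members, and Aurkb in thymus CD4 SP stood at -0.018 (-0.026 with 12 libraries). The fit of thymus CD8 SP without CKO 2 and CKO 3 holds 1 CKO library, so its calls are not given. Without mouse CKO 65 the spleen difference had 381 genes higher and 175 lower, with 16 members higher, at a median of 1.08.

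With the mouse as a replicate block the spleen difference had 672 genes higher and 411 lower, with 21 members higher. In the thymus difference the block took the members above 0 from 25 to 10 of the 43 tested, without a call. It turned Ccnb1 to -0.16, Aurkb to -0.12 and Birc5 to -0.0062. In WT spleen it took the members called lower to 10, with 2561 genes lower in all. In thymus CD8 SP samples shared only a number (correlations of same-numbered samples 0.0529 to 0.145), and the block left 0 members called. The block changed no other count of members called.

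Leaving out each library gave 0 to 7 genes higher, 1 to 38 lower and 0 to 21 members lower in thymus DP, the highest without WT 15. In thymus CD4 SP the median ran from -0.98 without CKO 14 to 0.086 without CKO 17. There Cdk1 ran from -0.80 to 0.44, Ccnb1 from -1.12 to 0.38, Aurkb from -1.15 to 0.48, Plk1 from -1.09 to 0.92, Cdc20 from -1.17 to 1.02, Birc5 from -1.04 to 0.77, Espl1 from -0.92 to 0.65 and Kifc1 from -0.81 to 0.66. Thymus CD8 SP had 1 to 11 genes higher, 0 to 40 lower and 0 to 1 members, and Cenpf ran from -0.026 to 0.11. Spleen CD4 had 706 to 1232 genes higher, 379 to 912 lower and 1 to 10 members; there Cdk1 ran from -0.14 to 0.53, Ccnb1 from -0.38 to 0.56, Cdc20 from -0.16 to 0.54 and Kifc1 from -0.21 to 0.85. Spleen CD8 had 844 to 1320 genes higher and 462 to 978 lower. The thymus difference had 0 to 6 genes lower and a median of -0.59 to 0.48, with Top2a from -0.51 to 0.11, Cdk1 from -0.46 to 0.73, Ccnb1 from -0.76 to 0.70, Aurkb from -0.74 to 0.84, Plk1 from -0.70 to 1.25, Cdc20 from -0.71 to 1.42, Birc5 from -0.73 to 1.03, Espl1 from -0.60 to 0.90 and Kifc1 from -0.43 to 0.99. The spleen difference had 188 to 387 genes higher, 46 to 162 lower, 0 to 26 members higher and a median of 0.52 to 1.17. The fit with 26 members was the one with 387 genes higher. In WT spleen 3 to 10 members were lower, with a median of -0.24 to -0.15, Birc5 from -0.021 to 0.11 and Bub1 from -0.28 to 0.063. Fewer libraries enter these fits, and other causes of the changes were not tested.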
